A study of Mus musculus with 24 samples.

Results

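The inflammatory cytokine genes Il1a, Il1b, Il1rn, Il18, Il6, Il10, Il12b, Il27 and Tnf were followed through RNA-seq libraries of mouse bone marrow-derived macrophages. These 9 genes were taken by their symbols from a count table of 54532 genes; 14261 genes passed a filter on low counts, and 8 of the 9 cytokine genes were among them. Il12b stayed under that filter. In the mm10 coordinates of the table, Il1a (chr2:129299610-129309972) and Il1b (chr2:129364570-129371139) lie near each other on the minus strand, and Il1rn (chr2:24336853-24351494) lies far from them on the plus strand. Il18 (chr9:50554827-50581840), Il6 (chr5:30013114-30019981), Il10 (chr1:131019845-131024974) and Il12b (chr11:44400063-44414033) are on the plus strand of 4 other chromosomes. Il27 (chr7:126589010-126594941) and Tnf (chr17:35199381-35202007) are on the minus strand. The 24 libraries fell into 8 groups of 3, which combined 4 genotypes with 2 treatments. The genotypes were Smad2 fl/fl (Smad2fl), Smad2 fl/fl with LyzM-Cre (MyS2KO), Smad3 fl/fl (Smad3fl) and Smad3 fl/fl with LyzM-Cre (MyS3KO). LyzM-Cre expresses the recombinase from the lysozyme locus of myeloid cells, so the deletion was aimed at myeloid cells only and all 4 genotypes carried floxed alleles. The labels gave the mice as C57BL/6 animals of 2 to 3 months. Marrow of the tibia was grown in WEHI-3 conditioned medium, a source of IL-3, with CSF-1. After about 16 h of serum starvation the cells were left untreated or received TGF-β1 at 10 ng/ml for 4 h. The labels do not say that the 3 libraries of a group came from separate animals, so the p-values below measure the spread between libraries. In bulk RNA, fewer cells of a type and less RNA per cell cannot be told apart.

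IL-1α and IL-1β signal through the same receptor, IL-1R1, and the antagonist encoded by Il1rn occupies that receptor without signalling. IL-1β and IL-18 are made as inactive precursors that inflammasome caspases cut. IL-6, TNF and the p40 subunit encoded by Il12b are typical products of macrophages stimulated through Toll-like receptors, whereas IL-10 restrains their production. Il27 encodes the p28 subunit of IL-27, which pairs with the product of Ebi3. TGF-β1 signals through receptor kinases that phosphorylate SMAD2 and SMAD3, which enter the nucleus with SMAD4, and it is known in macrophages for dampening inflammatory gene expression. The question put by the design was which macrophage transcripts respond to TGF-β1 and how far the response needs SMAD2 or SMAD3.

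The promoters of Il1b, Il6 and Tnf are shown because the results below turn on Il1b and Il6, which differed between groups, and on Tnf, which was not called with TGF-β1. RefSeq promoters of build GRCm38.p6, from 250 bases before to 50 bases after the start of the gene, were matched for 7 of the 9 genes. Il10 and Il27 had no entry and could not be shown. Capitals mark matches, on either strand, to an AP-1 motif (TGANTCA), an NF-κB motif, a C/EBP motif (TTNNGNAA) and, on the gene's strand only, a TATA box (TATAAA). The Il1b window is chr2:129371090-129371389 on the minus strand, the Il6 window chr5:30012864-30013163 on the plus strand and the Tnf window chr17:35201958-35202257 on the minus strand.
Il1b: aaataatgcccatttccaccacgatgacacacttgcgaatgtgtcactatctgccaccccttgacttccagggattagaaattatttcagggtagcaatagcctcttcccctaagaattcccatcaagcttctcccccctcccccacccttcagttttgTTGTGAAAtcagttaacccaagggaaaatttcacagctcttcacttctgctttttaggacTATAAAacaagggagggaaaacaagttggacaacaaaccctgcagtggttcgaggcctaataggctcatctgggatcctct
Il6: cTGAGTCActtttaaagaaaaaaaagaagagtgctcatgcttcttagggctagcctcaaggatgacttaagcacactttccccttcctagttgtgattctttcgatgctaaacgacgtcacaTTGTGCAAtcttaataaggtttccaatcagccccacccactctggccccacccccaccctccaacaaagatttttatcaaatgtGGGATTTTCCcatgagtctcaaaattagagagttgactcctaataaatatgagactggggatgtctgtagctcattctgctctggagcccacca
Tnf: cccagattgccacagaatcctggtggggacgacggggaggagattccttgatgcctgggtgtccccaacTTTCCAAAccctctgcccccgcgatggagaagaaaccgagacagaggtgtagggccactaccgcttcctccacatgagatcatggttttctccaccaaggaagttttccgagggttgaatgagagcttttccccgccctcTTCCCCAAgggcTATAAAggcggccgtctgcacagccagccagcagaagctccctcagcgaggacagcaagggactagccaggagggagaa
In the Il1b window the capitals are 1 C/EBP match at position -91 and 1 TATA box at -31. The Il6 window held an AP-1 match at -249, a C/EBP match at -128 and an NF-κB match at -44. The Tnf window held 2 C/EBP matches, at -181 and -41, and a TATA box at -29. No pair of marked matches overlapped in these windows. Among 32851 RefSeq mouse promoters of the same length, 7.81% held the AP-1 motif, 8.46% the NF-κB motif, 40.7% the C/EBP motif and 8.32% the TATA box. A SMAD box (CAGAC, not capitalised) was found once in the Il6 window and once in the Tnf window, was absent from these letters of the Il1b window, and was held by 49.6% of the promoters. The matches are descriptions of letters in a window.

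Library totals ran from 16868501 to 24918582 counts. The target of the deletion was checked first. Smad2 was 34.9 to 47.2 CPM (counts scaled to equal library totals with TMM factors) in the libraries labelled MyS2KO and 35.9 to 45.4 CPM in the Smad2fl libraries, so the label was not visible at the level of the whole gene. Lyz2, the locus that carries the Cre, was lower in the libraries labelled MyS2KO than in Smad2fl (5306 to 6827 against 10970 to 11690 CPM untreated, 4117 to 4393 against 7462 to 8934 CPM treated), while MyS3KO and Smad3fl overlapped untreated and treated (1421 to 4519 against 2040 to 6818 CPM over both). Smad3 was 161 to 289 CPM in MyS3KO and 369 to 460 CPM in Smad3fl, lowered but not lost, and 26.4 to 66.7 CPM in both genotypes of the Smad2 line. The macrophage markers Adgre1 (8280 to 15900 CPM), Csf1r and Cd68 were high in every library. The neutrophil marker Ly6g was at 0 in 20 of 24 libraries and never above 0.239 CPM, while S100a8, S100a9 and Ngp of the same list were found in every library, at up to 3.63, 7.78 and 6.17 CPM. Of 6 dendritic cell markers Xcr1 was at 13.8 to 38.5 CPM in every library, Cd209a was at 0 in all 24 and the others stayed at or below 1.16 CPM. Ribosomal protein genes took 0.877 to 1.47% of the counts in Smad3fl libraries and 1.58 to 2.41% elsewhere. Libraries within the Smad3 line also stood apart from each other: Trim12a, a gene of the TRIM family, was 38.7 to 73.1 CPM in Smad3fl libraries 1 and 2 and at most 0.839 CPM in Smad3fl library 3 and in MyS3KO, and Ifi202b, an interferon-inducible gene, was 0.49 to 1.25 CPM in both MyS3KO libraries numbered 1 but 68.9 to 104 CPM in those numbered 2 and 3. Ifi202b was 80.7 to 275 CPM in Smad3fl and at most 0.455 CPM in the Smad2 line, where Trim12a was 49.4 to 102 CPM. Cytokine results resting on the Smad3fl or MyS3KO libraries that stood apart are therefore given with and without them.

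Per unit of transcript length, Il1rn or Tnf was the most abundant of the 9 genes in every library except untreated Smad3fl library 1, where Il1b was. In untreated Smad2fl the deposited FPKM were 98.3, 141 and 143 for Il1rn, 74.9, 55.6 and 73.1 for Il18 and 45.7, 51.9 and 81.7 for Tnf. Il10 stood at 16.6, 22.9 and 25.4 FPKM, Il27 at 14.5, 18.4 and 22.8 FPKM and Il1b at 10.2, 21.2 and 21.2 FPKM, and these ranges overlapped. Il6 was 0.408 to 0.914 FPKM there and Il1a at most 0.0722 FPKM, so both were near the limit of detection. In untreated Smad3fl, by contrast, Il1b reached 274, 130 and 44.6 FPKM, and its highest library exceeded the Il1rn value of the same library (197 FPKM). The FPKM of Il1a, Il10 and Il27 rested on the full exonic length given in the table, while those of Il1b and Il1rn rested on lengths that were 2.36 and 3.82 times shorter, so orders between genes depend on that choice. Comparisons within a gene do not.

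Il12b, the p40 subunit shared by IL-12 and IL-23, had 0 to 10 reads in any library and 88 reads in all 24. Its level was at most 0.606 CPM, and it was not tested in any comparison.

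**Figure D1:**
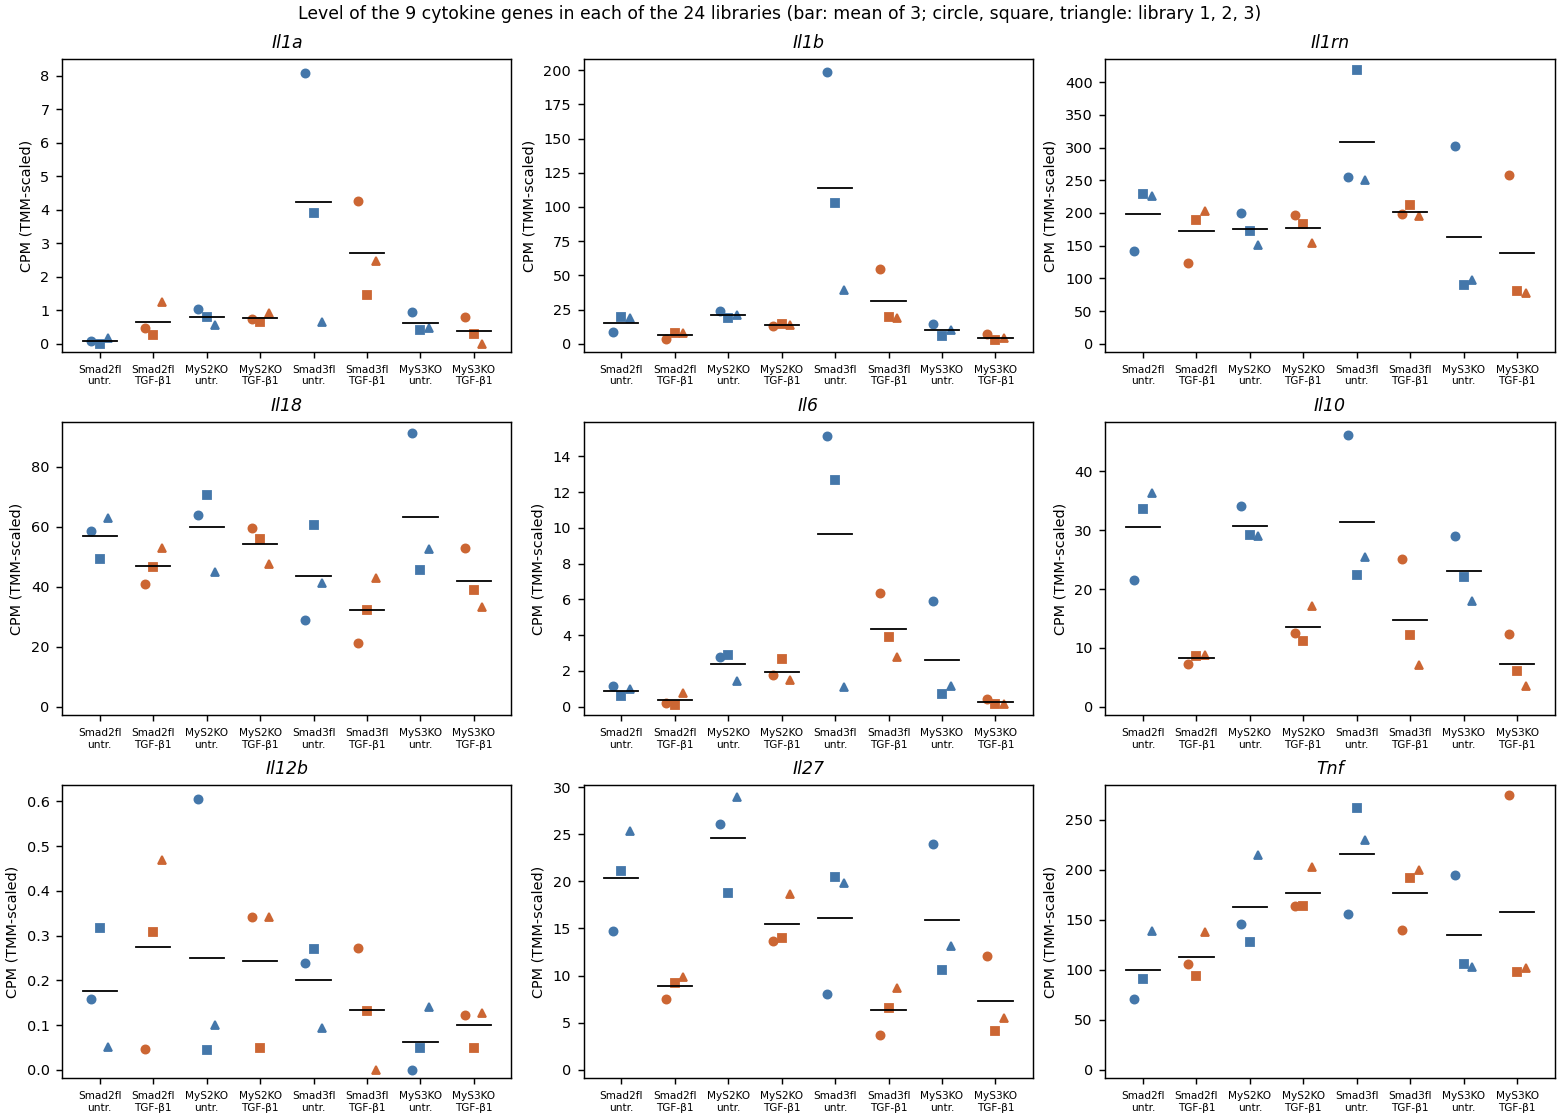
Level of each of the 9 genes (CPM scaled with TMM factors, linear axes that differ between panels) in the 24 libraries; blue is untreated, orange TGF-β1, the bar is the mean of 3 and the symbols are library numbers. Il10 and Il27 were lower with TGF-β1 in group mean in all 4 genotypes, whereas untreated Smad3fl libraries 1 and 2 stood above the other libraries for Il1b, up to 198 CPM.

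Il10 and Il27 were each called lower with TGF-β1 in 2 of the 4 genotypes. Il10, which encodes the anti-inflammatory cytokine IL-10, fell 3.68-fold in Smad2fl and 3.18-fold in MyS3KO. In Smad2fl it was 21.5, 33.6 and 36.3 CPM untreated and 7.35, 8.63 and 8.82 CPM with TGF-β1, with no overlap. In MyS3KO it was 29.03, 22.0 and 17.97 CPM untreated and 12.4, 6.00 and 3.54 CPM treated, again without overlap. These changes were -1.88 ± 0.40 and -1.67 ± 0.40 on the log2 scale (SE; adjusted p = 0.00246 and 0.00762). The MyS3KO call was lost without treated library 3 (-1.36, adjusted p = 0.0569) and in the fit of the Smad3 line alone (adjusted p = 0.0555).

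In the other genotypes Il10 moved the same way without passing the test. In MyS2KO the libraries read 34.1, 29.2 and 29.0 CPM untreated and 12.5, 11.1 and 17.1 CPM treated, a change of -1.18 ± 0.39 (adjusted p = 0.124) although the groups did not overlap. In Smad3fl the change was -1.08 ± 0.39 (adjusted p = 0.0739); library 1 was the highest both untreated (46.3 CPM) and treated (25.1 CPM), which made the groups overlap. Equal library numbers deviated together in Smad3fl. In MyS2KO they did so less clearly, as an unequal pair (r = 0.197) exceeded an equal one (r = 0.154). With the library number as a block Il10 passed in MyS2KO and Smad3fl, at -1.2 (adjusted p = 0.00125) and -1.17 (adjusted p = 0.000537). Without treated Smad3fl library 1 or untreated library 2, Il10 also passed in Smad3fl (-1.70 and -1.30, adjusted p = 0.00758 and 0.0462).

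Il27, the p28 subunit of IL-27, fell in both floxed controls. In Smad2fl it was 14.7, 21.0 and 25.4 CPM untreated and 7.53, 9.25 and 9.87 CPM treated, without overlap. The change was -1.196 ± 0.39 (adjusted p = 0.0477), close enough to the threshold that leaving out any Smad2fl library but untreated library 1 ended the call (adjusted p = 0.0782 to 0.168). In Smad3fl, 8.06, 20.5 and 19.8 CPM became 3.67, 6.56 and 8.73 CPM, and the lowest untreated library lay below the highest treated one. Each treated library lay below the untreated one of equal number, and Il27 was also called with the library number as a block. In the fit without a block the change was -1.35 ± 0.39 (adjusted p = 0.0246). That call was lost without untreated library 2 or 3 (adjusted p = 0.0799 and 0.0985) or treated library 1 or 2 (adjusted p = 0.149 and 0.064). Without both libraries numbered 3 the adjusted p was 0.066, without those numbered 1 and 2 it was 0.246, and in the fit of the Smad3 line alone it was 0.0999.

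In MyS3KO the Il27 change was -1.14 ± 0.39 (adjusted p = 0.0711); it passed without both libraries numbered 1 (-1.31, adjusted p = 0.0463), without untreated library 2 (-1.39, adjusted p = 0.0415) and without treated library 1 (-1.71, adjusted p = 0.00808). In MyS2KO it was -0.67 ± 0.38 (adjusted p = 0.54), and -0.66 (adjusted p = 0.00678) with the library number as a block. The partner subunit Ebi3 also fell in Smad2fl (-0.65 ± 0.18, adjusted p = 0.0218) and in Smad3fl (-0.75 ± 0.18, adjusted p = 0.0075).

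Il1b, the precursor of the fever-inducing cytokine IL-1β, had a lower mean with TGF-β1 in all 4 genotypes and was called in Smad3fl. Untreated Smad3fl libraries 1 to 3 read 198, 103 and 39.5 CPM, and the treated ones 54.5, 19.9 and 18.9 CPM. Library 1 was the highest in both groups, and treated library 1 lay above untreated library 3. Each treated library lay below the untreated one of equal number, and Il1b was also called with the library number as a block. In the fit without a block the change was -1.87 ± 0.49 (adjusted p = 0.0126). The dendritic cell marker sum, mostly Xcr1, went from 32.3 to 39.8 CPM untreated to 18.9 to 24.6 CPM treated and the mitochondrial share from 0.64 to 0.647% to 0.763 to 0.841%, and their part in the result was not tested. The call was lost in the fit of the Smad3 line alone (adjusted p = 0.0572), without untreated library 1 (-1.21, adjusted p = 0.10) and without treated library 2 or 3 (-1.64 and -1.63, adjusted p = 0.0731 and 0.0658). Without both libraries numbered 1 and 2 it was -1.07 (adjusted p = 0.335), and without those numbered 3 it was -2.03 (adjusted p = 0.0138).

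In Smad2fl, Il1b was 8.20, 19.2 and 18.7 CPM untreated and 3.28, 8.06 and 7.57 CPM treated, groups that did not overlap but did not pass the test (-1.28 ± 0.51, adjusted p = 0.117). In MyS2KO it went from 23.9, 18.5 and 21.3 CPM to 12.8, 14.1 and 13.9 CPM (-0.64 ± 0.49, adjusted p = 0.731; -0.64, adjusted p = 0.0389, with the block). In MyS3KO it went from 14.7, 5.67 and 9.73 CPM to 6.74, 2.63 and 4.09 CPM, with overlapping groups (-1.17 ± 0.53, adjusted p = 0.193).

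Il1a, which encodes the alarmin IL-1α, was too rare for most comparisons. In Smad2fl it had 2, 0 and 3 reads untreated and 10, 6 and 24 reads treated, so the fitted change of 2.95 ± 1.10 (adjusted p = 0.0934) rested on 5 reads in 1 group. In the other genotypes its fitted changes lay between -0.81 and -0.04, none called. Il1rn, the receptor antagonist, changed little in the fit: its values were -0.21, 0.02, -0.61 and -0.24 in Smad2fl, MyS2KO, Smad3fl and MyS3KO, none called in the fit without a block. In Smad3fl its untreated libraries (256, 418 and 251 CPM) all lay above the treated ones (198, 212 and 195 CPM), and with the block the change passed (-0.57, adjusted p = 0.000747). Il18 changed by -0.28, -0.14, -0.44 and -0.60 in the same order, with none called.

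**Figure D2:**
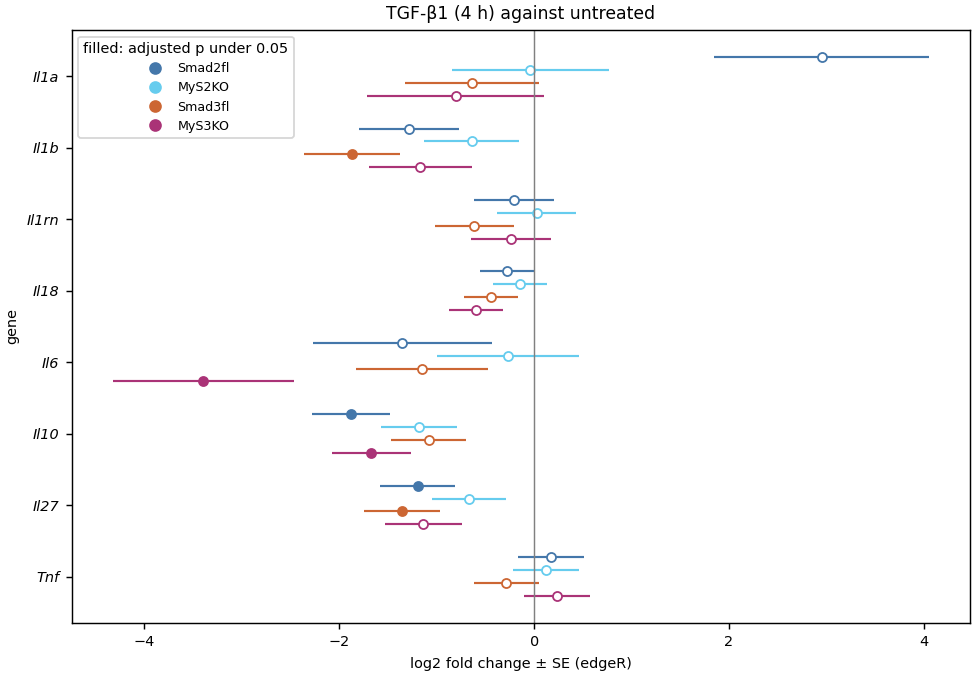
Log2 fold changes with TGF-β1 against untreated (edgeR, ± SE) for the 8 tested genes in each genotype; filled symbols passed an adjusted p under 0.05. Filled symbols are Il10 and Il27 in Smad2fl, Il1b and Il27 in Smad3fl, and Il6 and Il10 in MyS3KO, all below 0, while every Tnf symbol lies between -0.28 and 0.23.

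Il6, the acute-phase cytokine, was scarce, and its call in MyS3KO leaned on 1 library. The untreated MyS3KO libraries held 99, 15 and 25 reads and the treated ones 7, 3 and 4 reads. Untreated library 1 was far above its group, and the groups did not overlap. The change was -3.39 ± 0.93 (adjusted p = 0.0198), a 10.5-fold fall. Without untreated library 1 it was -1.99 (adjusted p = 0.278), and without both libraries numbered 1 it was -2.56 (adjusted p = 0.222). The call was also lost without treated library 2 or 3 (adjusted p = 0.0871 and 0.0981) and in the fit of the Smad3 line alone (adjusted p = 0.0774). In Smad2fl, MyS2KO and Smad3fl the changes were -1.35 ± 0.92, -0.27 ± 0.73 and -1.15 ± 0.68, none called. The Smad3fl value turned to 1.30 without the libraries numbered 1 and 2, where the remaining library 3 read 1.13 CPM untreated and 2.80 CPM treated.

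Tnf, a central early inflammatory mediator, was among the highest of the set and did not pass in any genotype. Untreated and treated libraries were 70.3 to 138 and 93.9 to 138 CPM in Smad2fl, 127 to 215 and 164 to 203 CPM in MyS2KO, 156 to 262 and 140 to 199 CPM in Smad3fl, and 103 to 195 and 98.0 to 274 CPM in MyS3KO. The groups overlapped in each genotype. The changes were 0.18 ± 0.34, 0.12 ± 0.34, -0.28 ± 0.34 and 0.23 ± 0.34. Their 95% intervals, which ran from -0.53 to 0.88 in Smad2fl and from -0.98 to 0.42 in Smad3fl, did not exclude changes of nearly 1 log2 unit.

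Over the set, 2 of the 8 tested genes were called lower and none higher with TGF-β1 in each of Smad2fl, Smad3fl and MyS3KO. Among all tested genes 3.74% were called lower and 7.37% higher in Smad2fl, 5.64% and 6.38% in Smad3fl, and 3.47% and 6.54% in MyS3KO. In MyS2KO edgeR called none of the 8; 1 had an unadjusted p under 0.05 and DESeq2 called 1, Il10, while 0.505% of all genes were called lower and 2.9% higher. With the library number as a block, 3 genes were called in MyS2KO (Il10, Il27 and Il1b) and 4 in Smad3fl (Il1b, Il27, Il10 and Il1rn); over all genes the share called in either direction went from 3.41 to 7.24% in MyS2KO and from 12 to 23.2% in Smad3fl. The median change of the 8 genes was -0.74, -0.21, -0.86 and -0.97 in Smad2fl, MyS2KO, Smad3fl and MyS3KO, against medians of all genes of 0.01, 0.01, -0.03 and 0.00.

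Direct tests of the response did not separate the genotypes. A knockout-by-treatment interaction was called for none of the 8 genes in the Smad2 line (1 gene with an unadjusted p under 0.05) or in the Smad3 line (none), where edgeR called 0.00701% and 0.021% of all genes; DESeq2 called none of the 8 either. The single unadjusted p was that of Il1a in the Smad2 line, where the interaction was -2.99 ± 1.38 (edgeR, adjusted p = 1). The response of Smad3fl against that of Smad2fl was likewise called for none of the 8 by edgeR or DESeq2, with 1 unadjusted p under 0.05 and 0% of all genes called. A call in one genotype and not in another is therefore not shown to be a difference.

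Between the libraries labelled MyS2KO and Smad2fl none of the 8 genes was called by edgeR or DESeq2, untreated or treated. By edgeR 1 gene had an unadjusted p under 0.05 untreated and 2 did with TGF-β1, while 0.0701% and 0.421% of all genes were called. Among treated libraries, some members stood higher in every one labelled MyS2KO, though none was called. How many of all genes were free of overlap in the same way was not counted, so this is not shown to be particular to these genes. With TGF-β1, Il10 was 11.1 to 17.1 CPM in MyS2KO against 7.35 to 8.82 CPM in Smad2fl (0.71 ± 0.40, adjusted p = 0.624), and Il27 was 13.7 to 18.7 CPM against 7.53 to 9.87 CPM (0.80 ± 0.39, adjusted p = 0.547). Il1b, Il6 and Tnf did not overlap there either, at 1.11 ± 0.51, 2.45 ± 0.88 and 0.65 ± 0.34 (adjusted p = 0.505, 0.305 and 0.595). Untreated Il1a, with 46 reads against 5, was 3.23 ± 1.09 higher (adjusted p = 0.326). Summed neutrophil markers were 4.21 to 9.06 CPM in MyS2KO and 0.837 to 2.98 CPM in Smad2fl, and their part in these differences was not tested.

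Il1a and Il1b were lower in MyS3KO than in Smad3fl in both conditions, and Il6 was lower with TGF-β1. Untreated Il1b was 14.7, 5.67 and 9.73 CPM in MyS3KO against 198, 103 and 39.5 CPM in Smad3fl, without overlap. With TGF-β1 it was 6.74, 2.63 and 4.09 CPM against 54.5, 19.9 and 18.9 CPM, again without overlap. These differences were -3.50 ± 0.53 (adjusted p = 0.000141) and -2.81 ± 0.53 (adjusted p = 0.000881). With Smad3fl libraries 1 and 2 left out they were -1.97 and -2.07 (adjusted p = 0.04 and 0.0225), and without the MyS3KO libraries numbered 1 they were -3.87 and -3.20 (adjusted p = 0.000196 and 0.00128). Summed neutrophil markers were 11.3 to 18.3 CPM in MyS3KO and 2.72 to 17.8 CPM in Smad3fl, with Ly6g at or near 0 throughout, and their part in the result was not tested.

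Il1a differed in the same direction. Untreated Smad3fl held 203, 87 and 14 reads and MyS3KO 16, 8 and 10, so Smad3fl library 3 overlapped with MyS3KO. The difference was -2.82 ± 0.78 (adjusted p = 0.0153). It missed the threshold in the fit of the Smad3 line alone (adjusted p = 0.0592) and without MyS3KO library 2 or 3 (adjusted p = 0.077 and 0.0737), and fell away without Smad3fl library 1 (-1.92, adjusted p = 0.132) and without both Smad3fl libraries 1 and 2 (-0.13, adjusted p = 0.969). With TGF-β1, 94, 33 and 44 reads stood against 13, 6 and 0, with no overlap. That difference was -2.99 ± 0.84 (adjusted p = 0.0121), and it missed without Smad3fl library 1 (adjusted p = 0.0568), without MyS3KO library 3 (adjusted p = 0.0555) or without the Smad3fl libraries numbered 1 and 2 (-2.81, adjusted p = 0.0938).

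Il6 after TGF-β1 gave the widest separation: 140, 89 and 50 reads in Smad3fl against 7, 3 and 4 in MyS3KO. It was 17.9-fold lower (-4.17 ± 0.91, adjusted p = 0.0026), and the call held without Smad3fl libraries 1 and 2 (-3.50, adjusted p = 0.0373) and without the MyS3KO libraries numbered 1 (-4.71, adjusted p = 0.00215). Untreated, Smad3fl read 15.2, 12.7 and 1.13 CPM and MyS3KO 5.90, 0.740 and 1.17 CPM, overlapping groups with a difference of -1.92 ± 0.70 (adjusted p = 0.0616). That value turned to 1.18 without Smad3fl libraries 1 and 2, and passed without Smad3fl library 3 (-2.44, adjusted p = 0.00492) or MyS3KO library 1 (-3.33, adjusted p = 0.00439).

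Il1rn, Il10, Il27, Il18 and Tnf were not called between MyS3KO and Smad3fl. The antagonist gene Il1rn was split by library: MyS3KO libraries numbered 1 read 303 CPM untreated and 258 CPM treated, and those numbered 2 and 3 read 76.8 to 97.1 CPM. Its differences were -0.92 ± 0.41 and -0.54 ± 0.41 (adjusted p = 0.128 and 0.332) with all libraries, and -1.70 and -1.35 (adjusted p = 7.9e-05 and 0.000683) without the libraries numbered 1. Tnf followed the same split, at 195 and 274 CPM in the libraries numbered 1 and 98.0 to 106 CPM in the rest. Its differences were -0.68 ± 0.34 and -0.16 ± 0.34 (adjusted p = 0.174 and 0.743), and -1.03 and -0.82 (adjusted p = 0.00873 and 0.0297) without those libraries. Il10 with TGF-β1 differed by -1.04 ± 0.40 (adjusted p = 0.0564) and passed without the MyS3KO libraries numbered 1 (-1.63, adjusted p = 0.00805). Without Smad3fl libraries 1 and 2, which left 1 library in each Smad3fl group, that Il10 difference was gone and its sign slightly positive.

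Untreated, 2 of the 8 genes were called lower in MyS3KO and none higher, where 9.38% of all genes were called lower and 8.37% higher. With TGF-β1, 3 of 8 were lower and none higher, where 13.2% of all genes were lower and 15% higher. Without the MyS3KO libraries numbered 1 the counts were 5 and 6 of 8, and without Smad3fl libraries 1 and 2 they were 1 and 2 of 8. The shares of all genes called in either direction, 17.7% and 28.2% with all libraries, were 22% and 23.8% in the former setting and 1.77% and 4.88% in the latter. Ribosomal protein genes, at 1.58 to 2.22% of counts in MyS3KO and 0.877 to 1.47% in Smad3fl, moved with this comparison, and their part in it was not tested. Trim12a also differed between MyS3KO and Smad3fl libraries 1 and 2. Knockout and such other differences between the stocks cannot be told apart in this comparison.

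**Figure D3:**
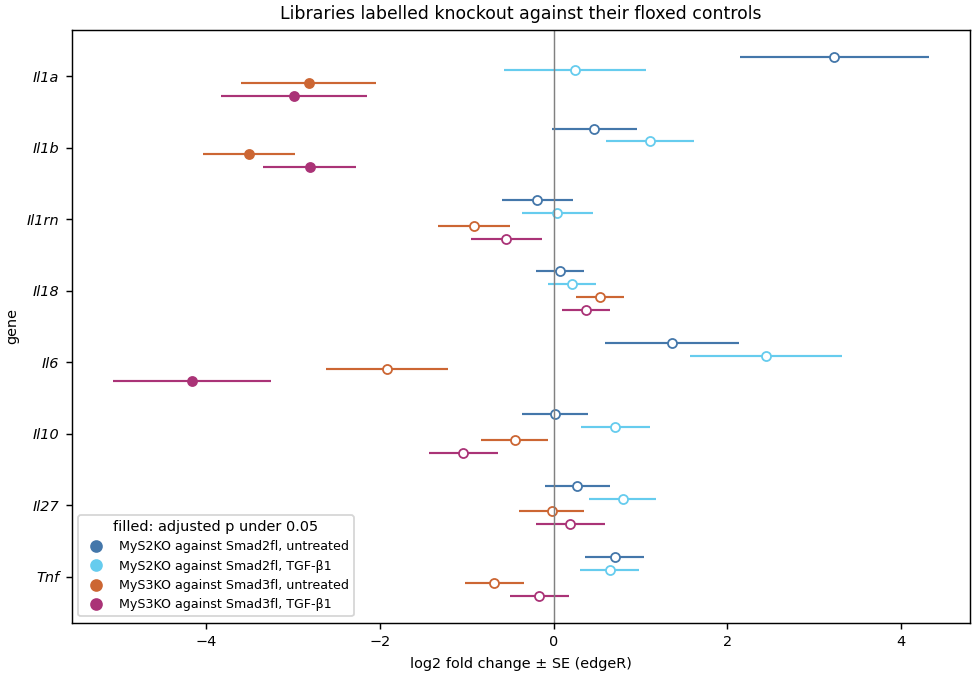
Log2 fold changes (edgeR, ± SE) of the libraries labelled MyS2KO against Smad2fl and of MyS3KO against Smad3fl, untreated and with TGF-β1, for the 8 tested genes; filled symbols passed an adjusted p under 0.05. Filled symbols are Il1a and Il1b in both MyS3KO comparisons and Il6 with TGF-β1, from -2.81 to -4.17.

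The contrast between the lines was tested directly in a comparison chosen after the data had been seen, the knockout difference of the Smad3 line minus that of the Smad2 line. Untreated, it was -6.05 ± 1.32 for Il1a (adjusted p = 0.0116) and -3.98 ± 0.71 for Il1b (adjusted p = 0.00299). With TGF-β1 it was -3.92 ± 0.74 for Il1b (adjusted p = 0.00403) and -6.62 ± 1.27 for Il6 (adjusted p = 0.0044). The 2 genes called lower of 8 in each condition stood against 2.84% and 3.26% of all genes. Without Smad3fl libraries 1 and 2, which left 1 library in each Smad3fl group, the untreated values were -3.37 for Il1a and -2.45 for Il1b. The values with TGF-β1 were then -3.15 for Il1b and -5.92 for Il6.

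The controls themselves differed. Untreated Smad3fl exceeded untreated Smad2fl in Il1b (198, 103 and 39.5 against 8.20, 19.2 and 18.7 CPM, no overlap), by 2.89 ± 0.51 (adjusted p = 0.000262). Il6 was 3.39 ± 0.77 higher (adjusted p = 0.00213) although library 3 of Smad3fl, at 1.13 CPM, lay within the Smad2fl range. Tnf was 1.11 ± 0.34 higher (adjusted p = 0.0163), with Smad3fl at 156, 262 and 229 CPM above Smad2fl at 70.3, 90.4 and 138 CPM. Il1a was 304 reads in Smad3fl and 5 in Smad2fl, a fitted 5.64 ± 1.00 (adjusted p = 0.000268). These were 4 of 8 genes called higher and none lower, where 17.7% of all genes were called higher and 15.6% lower. Without Smad3fl libraries 1 and 2, which left 1 untreated Smad3fl library, Il1b was 1.36 higher, Il6 0.29, Tnf 1.199 and Il1a 2.96. The Tnf call was lost without Smad2fl library 1 or 2 (adjusted p = 0.0805 and 0.0654) or Smad3fl library 2 (adjusted p = 0.0803). Il10, Il18, Il27 and Il1rn lay between -0.38 and 0.63, none called. Line, allele and whatever else separates the stocks cannot be told apart here, and ribosomal protein genes took 0.877 to 1.47% of counts in untreated Smad3fl against 2.04 to 2.22% in untreated Smad2fl. Marker sums did not overlap either, at 2.72 to 16.2 against 1.43 to 2.39 CPM for neutrophils, 32.3 to 39.8 against 17.7 to 22.1 CPM for dendritic cells and 0.631 to 2.21 against 5.29 to 6.31 CPM for erythroid cells. Their part in the result was not tested.

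By group mean, Il1b was ordered from untreated Smad3fl (113.5 CPM) and treated Smad3fl (31.1 CPM) down to treated MyS3KO (4.49 CPM), and each neighbour in that order overlapped with the next. Il10 had the 4 untreated groups on top, at means of 31.3, 30.8, 30.5 and 23.0 CPM, followed by treated Smad3fl (14.8 CPM), MyS2KO (13.5 CPM), Smad2fl (8.27 CPM) and MyS3KO (7.31 CPM). Only MyS2KO and Smad2fl, among neighbours of that order, did not overlap. Il27 had the same 4 untreated groups on top, from 24.6 to 15.9 CPM, and treated Smad3fl at the bottom (6.32 CPM). Il18 had group means from 32.1 to 63.1 CPM over the 8 groups, with every neighbouring pair overlapping.

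The ratio of the antagonist to its agonist differed by group. The Il1rn to Il1b ratio of FPKM was 6.66 to 9.60 in untreated and 13.1 to 21.0 in treated Smad2fl, and 3.96 to 5.19 and 6.16 to 8.56 in MyS2KO, without overlap in either genotype. In Smad3fl it was 0.719, 2.27 and 3.55 untreated and 2.03, 5.94 and 5.77 treated, and in MyS3KO 11.5, 8.90 and 5.56 untreated and 21.3, 17.1 and 10.5 treated. Each treated library of the Smad3 line exceeded the untreated library of equal number, while the groups overlapped. Untreated Smad3fl library 1 was the only one of the 24 in which Il1b exceeded Il1rn. With exonic lengths from the table these ratios are 0.618 times as large, in every library alike. The ratio of Tnf to Il10 was 2.27 to 3.22 untreated and 9.19 to 13.2 treated in Smad2fl, 3.60 to 6.25 and 10.0 to 12.5 in MyS2KO, and 4.07 to 5.67 and 13.8 to 24.4 in MyS3KO, again without overlap. In Smad3fl the 2.84 to 9.91 of the untreated libraries overlapped with the 4.73 to 23.7 of the treated ones. The ratios are a description and carry no test.

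**Figure D4:**
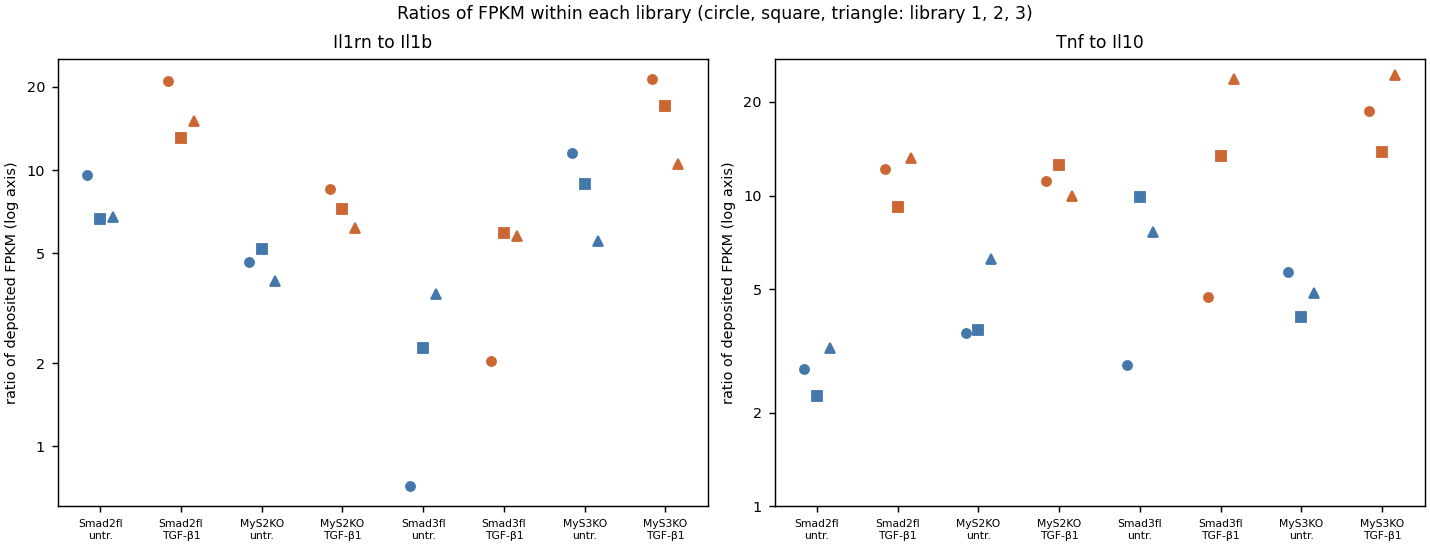
Ratios of deposited FPKM within each of the 24 libraries on a log axis, Il1rn to Il1b on the left and Tnf to Il10 on the right; blue is untreated, orange TGF-β1, symbols are library numbers. The treated libraries lie above the untreated ones in Smad2fl and MyS2KO in both panels, and untreated Smad3fl library 1 is the lowest point of the left panel at 0.719.

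Genes around these cytokines were described by 8 lists with 96 genes, of which 81 were tested. With TGF-β1, edgeR called 11 higher and 13 lower in Smad2fl and 5 higher and 5 lower in MyS2KO, where the shares of all genes were 7.37% and 3.74%, and 2.9% and 0.505%. The Smad3fl counts were 7 higher and 20 lower, and those of MyS3KO 9 higher and 10 lower, against 6.38% and 5.64%, and 6.54% and 3.47%, of all genes. With the block these were 10 and 10 in MyS2KO and 12 and 38 in Smad3fl, where 7.24% and 23.2% of all genes were called in either direction. The IL-6 receptor chains parted in all 4 genotypes: Il6ra, the ligand-binding chain, rose by 0.95, 0.56, 1.03 and 0.95 in Smad2fl, MyS2KO, Smad3fl and MyS3KO, and Il6st, the shared signalling chain gp130, fell by 0.95, 0.52, 0.90 and 1.03 in the same order. Osm, the IL-6 family cytokine oncostatin M, rose by 2.69, 1.53, 2.55 and 2.49. Osm went from 1.27 to 2.12 CPM untreated to 9.08 to 12.8 CPM treated in Smad2fl.

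Among 16 transcription factors of cytokine genes, 3 were higher and 4 lower in Smad2fl with TGF-β1. Both directions had 2 in MyS2KO, and the Smad3 line had 3 higher and 5 lower in either genotype. Bhlhe40, a repressor of Il10 in mice, rose in all 4 genotypes, by 3.17 ± 0.25 in Smad2fl, 1.74 ± 0.24 in MyS2KO, 1.501 ± 0.22 in Smad3fl and 2.83 ± 0.23 in MyS3KO, from a low level of 0.986 to 1.38 CPM in untreated Smad2fl to 8.90 to 11.3 CPM treated. Fos, an AP-1 subunit, rose by 1.86, 1.45, 1.78 and 2.06 in Smad2fl, MyS2KO, Smad3fl and MyS3KO. Cebpd, a C/EBP factor of acute-phase genes, fell by 2.29 ± 0.30 in Smad2fl, by 1.08 ± 0.29 in MyS2KO, by 1.91 ± 0.30 in Smad3fl and by 1.41 ± 0.29 in MyS3KO. With TGF-β1, Cebpd was 67.1 to 120.5 CPM in the libraries labelled MyS2KO and 34.4 to 36.5 CPM in Smad2fl, a difference of 1.39 ± 0.29 (adjusted p = 0.0394). It was the single listed gene called there by edgeR over all 24 libraries, where 0.421% of all genes were called in either direction. The fit of the Smad2 line alone called 6 higher and 1 lower of 80 (1.09% of all genes). The fit with the library number as a block called 3 higher (0.491%). The fit with no filter on low counts called 14 higher of 95 (1.1%), and DESeq2 4 higher and 1 lower (1.53%).

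Of 13 feedback inhibitors and mRNA turnover genes, Nfkbiz, an inducible nuclear IκB protein, fell in Smad2fl (-0.96), MyS2KO (-0.71), Smad3fl (-0.94) and MyS3KO (-0.83), and Tnip3, a partner of A20, fell in Smad2fl (-0.81), Smad3fl (-1.01) and MyS3KO (-1.40). Among 12 target genes of IL-1 and TNF, none was called higher in any genotype with TGF-β1; Ccl3 was called lower in Smad2fl (-1.38), and in Smad3fl 3 were lower, among them the neutrophil chemokines Cxcl1 (-1.74) and Cxcl2 (-1.44). Of 9 processing and release genes, Pycard, the inflammasome adaptor ASC, fell in Smad2fl (-0.65) and Smad3fl (-1.07), and Adam17, the sheddase that frees TNF, rose by 0.41 and 0.48 in the same genotypes. With Smad3fl libraries 1 and 2 left out, the Smad3fl calls of Tnip3, Cxcl1, Cxcl2, Pycard and Adam17 were lost (adjusted p = 0.442, 0.256, 0.364, 0.0966 and 0.232), and those of Il6ra, Il6st, Osm, Bhlhe40, Fos, Cebpd and Nfkbiz held.

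Between MyS3KO and Smad3fl, 3 of the 81 genes were called higher and 22 lower untreated, and 6 and 17 with TGF-β1. Among all genes 8.37% were called higher and 9.38% lower untreated, and 15% and 13.2% with TGF-β1. Without the MyS3KO libraries numbered 1 the listed counts were 2 and 33, and 4 and 31, of 83 tested. In that setting 22% and 23.8% of all genes were called in either direction. Leaving out Smad3fl libraries 1 and 2 left 1 library in each Smad3fl group. A lost call in that setting does not by itself show which libraries a difference rests on. Il1r1, the signalling IL-1 receptor, differed by -3.04 ± 0.73 on the log2 scale untreated and by -2.60 ± 0.70 with TGF-β1; with Smad3fl libraries 1 and 2 left out it was not called (-0.86 and -1.55, adjusted p = 0.647 and 0.239). Nlrp3, the sensor of an inflammasome, was 91.2 to 172 CPM in MyS3KO against 312 to 470 CPM in Smad3fl untreated (-1.67 ± 0.21, adjusted p = 2.28e-05; -1.39, adjusted p = 0.011, without Smad3fl libraries 1 and 2). Ptgs2, the inducible cyclooxygenase, was -2.46 ± 0.48 untreated and -2.67 ± 0.48 with TGF-β1. Leaving out those 2 libraries ended the untreated call (-0.82, adjusted p = 0.433) and not the treated one (-2.04, adjusted p = 0.0233). Of the 13 feedback and mRNA turnover genes 7 were lower and none higher untreated, Tnfaip3 (A20) by -1.06 and Zfp36 (tristetraprolin, which destabilises Tnf mRNA) by -0.95. Neither of these was called without Smad3fl libraries 1 and 2 (-0.66 and -0.91, adjusted p = 0.342 and 0.293). Without the MyS3KO libraries numbered 1, Il1r1, Nlrp3, Ptgs2, Tnfaip3 and Zfp36 were called in both conditions. Untreated Smad3fl against Smad2fl showed 18 genes higher and 12 lower of 81, where 17.7% of all genes were higher and 15.6% lower, with Cxcl1 at 122.8 to 455 CPM against 1.64 to 4.98 CPM (6.67 ± 0.55) and Il1r1 at 2.96 ± 0.72. Without Smad3fl libraries 1 and 2 the difference was 5.35 for Cxcl1 and 0.79 for Il1r1.

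**Figure D5:**
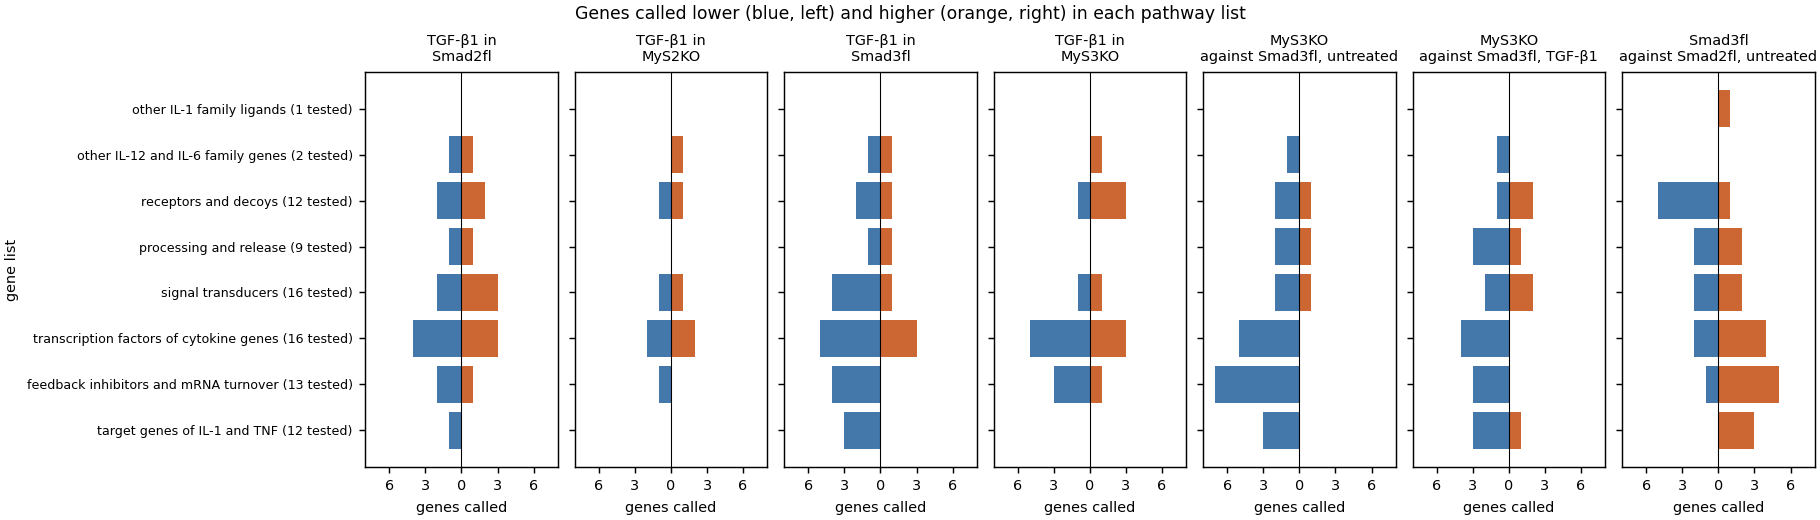
Number of genes called lower (blue, to the left of 0) and higher (orange, to the right) in each of 8 gene lists, for 7 comparisons; the number tested stands beside each list. Transcription factors have calls in both directions with TGF-β1 in each genotype, and feedback inhibitors and mRNA turnover genes have 7 lower and none higher in untreated MyS3KO against Smad3fl.

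Over the 24 libraries, the genes whose log2 CPM (prior count 2) was most like that of Il1b were Cxcl2 (Pearson r = 0.936, Spearman rho = 0.892), Ier3 (0.936 and 0.899) and Spic (0.929 and 0.899). Those most like Il6 were Osgin2 (0.934 and 0.909), Rel (0.912 and 0.891) and Mir22hg (0.904 and 0.87). For Il27 they were Inpp5b (0.969 and 0.957), Slamf8 (0.957 and 0.94) and Mcoln2 (0.955 and 0.923), and for Il10 they were Ppfibp2 (0.887 and 0.874), Dtx2 (0.88 and 0.867) and Cytip (0.869 and 0.877). Tnf was most like Sqstm1 (0.913 and 0.91), Cxcl11 (0.881 and 0.829) and H2-Q5 (0.866 and 0.846). The remaining tested members had their 3 most like genes at r between 0.865 and 0.933. These values describe the 24 libraries, which share group means, treatment and library composition, and they carry no test.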

How the data were processed

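RNA was sequenced from 24 polyA-selected libraries of bone marrow-derived macrophages in 8 groups of 3. The deposited raw counts per gene and the deposited FPKM were made by the authors; TopHat2 2.0.9, HTSeq 0.6.1 and Cufflinks 2.1.1 and the mouse build mm10 are named in the submitters' processing notes, with strand and counting mode not given in the sources used here. Counts were tested with edgeR 4.0.16 in R 4.3.3 (TMM factors, filterByExpr over the 8 groups, quasi-likelihood fit of all 24 libraries with 1 mean per group). Benjamini-Hochberg adjustment ran over 14261 genes per comparison, with 0.05 as the threshold of a call. CPM are on library totals (16868501 to 24918582 counts) multiplied by the TMM factors. The deposited FPKM served only for levels between genes. DESeq2 1.42.0, other scalings, no filter, single-line fits, a block for the library number and leaving out libraries were alternatives.

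Equal library numbers paired the samples where every equal-numbered pair correlated above 0.1 in its deviations from the group means. This held for untreated and treated MyS2KO (r = 0.154 to 0.405) and Smad3fl (0.334 to 0.445). The criterion took no account of unequal pairs, of which the highest was 0.197 in MyS2KO and -0.0921 in Smad3fl. In Smad2fl, which missed it, equal pairs were 0.0465 to 0.159 and the highest unequal pair was 0.0384. In MyS3KO these were 0.0439 to 0.414 and 0.285. The fit was tested on simulated data. The members and gene lists were chosen with earlier results of these data known. All 9 members were named; within each list and comparison the 2 called genes of largest change were named, and for each tested member the 3 genes of highest Pearson correlation. Fos, Bhlhe40, Cebpd and Nfkbiz were then given in all 4 genotypes, after their values were seen. Overlapping or antisense genes could not be told apart if counting ignored strand.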

Additional observations from a re-analysis of the deposited data

Results flagged for a closer look

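The difference of libraries labelled knockout from their floxed controls was itself compared between the 2 lines. It was called lower in the Smad3 line for 2 of the 8 tested genes in each condition. Of all genes 2.84% untreated and 3.26% with TGF-β1 were called lower. Knockout and other differences between the stocks cannot be told apart in it. The log2 difference of MyS3KO against Smad3fl minus that of MyS2KO against Smad2fl was -6.05 for Il1a and -3.98 for Il1b in untreated cells. With TGF-β1 it was -3.92 for Il1b and -6.62 for Il6. The comparison was added after the data had been seen, and the Smad2 label was not visible in the level of Smad2. Without Smad3fl libraries 1 and 2, which left 1 untreated Smad3fl library, the untreated values were smaller, -3.37 for Il1a and -2.45 for Il1b. Groups of 3 libraries were not tested for single outlying values.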

How the results depend on the processing

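Of the 82 log2 changes followed over all settings, 61 never changed sign, and 6 of the 19 called ones kept their call in every setting. Every change between a pair of groups was followed. Interaction, response and knockout difference tests were followed only where the unadjusted p of the main edgeR fit was under 0.05. DESeq2 size factors in edgeR changed no count of called cytokine genes. Without the low-count filter edgeR called 5, 1, 5 and 5 genes with TGF-β1 in Smad2fl, MyS2KO, Smad3fl and MyS3KO, 2 and 4 for MyS2KO and 6 and 5 for MyS3KO against their controls untreated and treated, 1 for the Smad3 line interaction, 1 for the response of Smad3fl against Smad2fl, and 4 and 5 for the knockout difference between lines. Over the 28343 genes of that setting, 6.27%, 2.07%, 7.12% and 6.05% were called with TGF-β1 in the 4 genotypes. The shares were 0.568% and 1.1% for MyS2KO and 9.31% and 14% for MyS3KO against their controls. They were 0.568% and 0.0776% for the interaction and response tests, and 4.37% and 6.73% for the knockout difference. The median prior degrees of freedom, the weight of the shared variance, were infinite there and 6.07 with the filter. Spread was then shared rather than estimated gene by gene. Fits on the libraries of 1 line called 4, 1, 0 and 0 with TGF-β1 and 1 for untreated MyS3KO against Smad3fl. Of all genes these fits called 15.4%, 4.6%, 8.99% and 7.78%, and 11.2%. The replicate block called 4, 3, 4 and 5 with TGF-β1. Of all genes it called 22.7%, 7.24%, 23.2% and 19.3%, against 11.1%, 3.41%, 12% and 10% in the main fit. It called 4 for untreated MyS3KO against Smad3fl (17.4% of all genes) and changed the other counts by at most 1. Only MyS2KO and Smad3fl met the pairing criterion, the lowest equal-number r being 0.0465 in Smad2fl and 0.0439 in MyS3KO. DESeq2 called 1 with TGF-β1 in MyS2KO and 4 for the knockout difference with TGF-β1, where 4.34% and 11.8% of all genes were called. Without Smad3fl libraries 3 the count in Smad3fl was 1, where 6.66% of all genes were called. Leaving out Smad3fl libraries 1 and 2 left 1 library in each Smad3fl group, too few to weigh counts of called genes. Without the MyS3KO libraries 1 the count was 5 and 6 for MyS3KO against Smad3fl and 5 and 6 for the knockout difference, untreated and treated. The shares of all genes called were 22% and 23.8%, and 11% and 10.5%. Leaving out 1 library gave 1 to 2, 0, 0 to 2 and 0 to 3 calls with TGF-β1 in the 4 genotypes. It gave 1 to 5 and 2 to 5 for MyS3KO against Smad3fl, 3 to 4 for Smad3fl against Smad2fl, and 2 to 4 and 2 to 5 for the knockout difference. Of all genes 7.17 to 10.6%, 2.14 to 3.06%, 7.73 to 13.6% and 6.22 to 10.5% were then called with TGF-β1. The other shares, in the same order, were 9.33 to 24.3%, 15.1 to 22.6%, 18.7 to 40.5%, 1.65 to 13.2% and 2.36 to 9.34%. The cause was not tested. The alternatives without whole pairs of libraries were chosen after seeing the data.

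Signs turned only for changes that were not called. With 1 library left out the TGF-β1 changes ranged from -0.053 to 0.48 for Tnf in Smad2fl; from -0.24 to 0.14 for Il1a, -0.061 to 0.11 for Il1rn, -0.30 to 0.0044 for Il18 and -0.012 to 0.38 for Tnf in MyS2KO; from -1.15 to 0.24 for Il1a in Smad3fl; and from -1.06 to 0.56 for Il1rn and -0.43 to 0.60 for Tnf in MyS3KO. For MyS2KO against Smad2fl they ranged from -0.066 to 0.24 for Il18 and -0.18 to 0.15 for Il10 untreated, and from -0.14 to 1.07 for Il1a and -0.147 to 0.185 for Il1rn treated. For MyS3KO against Smad3fl Il27 ranged from -0.44 to 0.21 untreated and -0.36 to 0.49 treated, and Tnf from -0.81 to 0.084 treated. Il10 in Smad3fl against Smad2fl ranged from -0.37 to 0.22, and was -0.067 with the replicate block. Without Smad3fl libraries 1 and 2 the TGF-β1 changes in Smad3fl were 1.89 for Il1a, 0.050 for Il18 and 1.30 for Il6; MyS3KO against Smad3fl was 1.18 for untreated Il6 and -0.029, 0.036 and -0.27 for treated Il18, Il10 and Il27; and Il10 was -0.26 in Smad3fl against Smad2fl. Without the MyS3KO libraries 1 Tnf with TGF-β1 was -0.088 in MyS3KO and treated Il27 was -0.36 against Smad3fl. Untreated Il27 in MyS3KO against Smad3fl was 0.0097 with the libraries of the line and 0.17 without Smad3fl libraries 3. Il10 in untreated MyS2KO was -0.0036 without the filter. Depth limited Il1a, Il6 and Il12b, with single libraries at 0 to 10 reads.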
